A study of Homo sapiens with 8 samples.

Results

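The 9 genes described here encode parts of the MHC class I antigen presentation route: HLA-B, HLA-C, HLA-E and B2M form the class I molecules, TAP1 and TAP2 the peptide transporter, and PSMB8, PSMB9 and PSMB10 the catalytic subunits of the immunoproteasome. They were taken from the deposited expression table by gene symbol, 9 of its 20263 genes, and all 9 were expressed highly enough to be tested among 11827 genes. After lenvatinib, PSMB9 and HLA-B stood highest relative to DMSO: PSMB9 averaged 29.5 ± 16.9 CPM in lenvatinib libraries and 5.88 ± 2.71 CPM in DMSO libraries, and HLA-B averaged 97.8 ± 11.04 CPM in lenvatinib libraries and 45.4 ± 7.12 CPM in DMSO libraries (SD, n = 4 each). CPM are read counts scaled to a common library size by the TMM method and given per 1e6 counts.

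Class I molecules are a polymorphic heavy chain paired with the invariant light chain beta-2-microglobulin, and they show peptides from inside the cell to cytotoxic T cells. Those peptides are cut from proteins by the proteasome, carried into the endoplasmic reticulum by the transporter TAP1-TAP2, and loaded there with the help of tapasin and calreticulin. In inflamed tissue, and in particular under interferon gamma, cells exchange the constitutive catalytic subunits PSMB6, PSMB7 and PSMB5 for PSMB9, PSMB10 and PSMB8, which shifts the peptides made. Loss of this route is a known way for tumours, hepatocellular carcinoma among them, to evade T cells.

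The RNA came from MHCC-97H, a human line of hepatocellular carcinoma, kept for 24 hours in lenvatinib or in its solvent DMSO. Lenvatinib is an oral inhibitor of VEGF, FGF and other receptor tyrosine kinases that is used against this cancer. The lenvatinib group holds 1 library at each of 40, 60, 80 and 100 µM, and the DMSO group holds 4 libraries, all of the same line. Whether the 4 DMSO libraries came from separate cultures is not labelled, and p-values therefore measure only how far these libraries differ, perhaps for technical reasons. As in any bulk sample, fewer cells that express a gene and less RNA of it per cell cannot be told apart.

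The lenvatinib libraries held 10181973 to 37384578 counts and the DMSO libraries 30635814 to 34240835. The shallowest was the 60 µM library, with reads for 11076 genes against 13290 to 14340 in the other libraries. Libraries also differed in how levels followed the GC content of genes. This was measured as a GC slope, the log2 change of a library against the mean of all libraries per 10 percentage points of GC content. In order of dose the slope was 0.67, 1.82, -0.58 and -0.60 in lenvatinib libraries, against 0.28, -0.50, -0.99 and -0.10 in DMSO libraries 1 to 4. Each comparison is therefore given in a fit without the GC slope and in one with the slope as a covariate. Leukocyte genes were close to absent, with PTPRC, CD3E, CD3D and MS4A1 at 0 reads and the sum over 12 leukocyte genes at 3.11 to 12.6 CPM in lenvatinib libraries against 6.29 to 13.3 CPM in DMSO libraries. The hepatocyte genes ALB and AFP had 6 and 2 reads in all, from the 60 µM library alone, and TTR had 0, so these defining hepatocyte products were at or near 0 in the line. The sum over 9 hepatocyte genes was 1.53 to 7.57 CPM in lenvatinib libraries and 11.3 to 15.9 CPM in DMSO libraries. Both of the tested ones fell with the GC slope in the fit, where 1.78% of all genes were called lower. Without it neither passed in edgeR, while DESeq2 called both lower, where it called 0.298% of all genes lower. FGB, a fibrinogen chain, averaged 0.286 ± 0.297 CPM in lenvatinib libraries and 4.996 ± 2.65 CPM in DMSO libraries (edgeR adjusted p = 0.00421). The lenvatinib mean of FGB lay within the 0.0802 to 0.295 CPM that a count of 0 allows. HNF4A, a hepatocyte transcription factor, averaged 1.78 ± 1.11 CPM in lenvatinib libraries and 8.42 ± 1.23 CPM in DMSO libraries (edgeR adjusted p = 0.0229). The 1 leukocyte gene tested was also called lower with the GC slope (log2 fold change -1.19), and not without it (-0.52). The part of these levels in the results on class I genes was not tested. Of 5 epithelial genes only the keratins KRT8 and KRT18 were tested, while EPCAM, KRT19 and CDH1 averaged under 1 CPM. KRT8 and KRT18 averaged 4979 ± 2850 and 3537 ± 2463 CPM in lenvatinib libraries, and 5982 ± 2356 and 3806 ± 1744 CPM in DMSO libraries. Both were lower at an unadjusted p under 0.05 in edgeR with the GC slope, where 20.3% of genes passed in either direction. Their median log2 fold change was -0.90 with the slope and -0.19 without it, and edgeR called neither in either fit.

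Where the genes lie matters for these counts, because several of them overlap. On GRCh38, as the deposited table places them, HLA-E (ENSG00000204592, chr6:30489467-30494205, plus strand), HLA-C (ENSG00000204525, chr6:31268749-31272105, minus) and HLA-B (ENSG00000234745, chr6:31269491-31357188, minus) lie in the class I part of the MHC, and the listed span of HLA-B covers most of HLA-C. TAP2 (ENSG00000204267, chr6:32821833-32838780, minus), PSMB8 (ENSG00000204264, chr6:32840717-32844703, minus), PSMB9 (ENSG00000240065, chr6:32844136-32859585, plus) and TAP1 (ENSG00000168394, chr6:32845209-32853978, minus) form a cluster in the class II part, where the listed span of PSMB9 covers TAP1 and the end of PSMB8 on the opposite strand. B2M (ENSG00000166710, chr15:44711477-44718877, plus) and PSMB10 (ENSG00000205220, chr16:67934502-67937087, minus) lie elsewhere. Whether strand was used in counting is unstated. In windows of 50 bases over the longest GENCODE v29 transcript, PSMB9 shared 0.190% with other genes on either strand, B2M 0%, HLA-E 5.76%, HLA-C 6.88%, TAP1 15.2%, PSMB8 18.2%, HLA-B 21.0%, TAP2 35.8% and PSMB10 38.9%. The shared stretch of TAP2 lies in the readthrough gene AL669918.1, which had 291 reads over all libraries, and that of PSMB10 in AC040162.1, with 500 reads. Of the HLA-B windows, 18.5% occur in the pseudogene AL671883.2 and 2.003% in HLA-C, and values of HLA-B, TAP2 and PSMB10 are uncertain to the extent that reads were divided with these genes. The same holds for TAP1 and PSMB8, of whose windows 14.2% and 18.2% occur in PSMB8-AS1. Of the PSMB8 windows 3.87% also occur in PSMB9, mostly in PSMB9 transcripts other than the longest. Values of PSMB9 are uncertain to that extent as well.

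The promoters of HLA-B, HLA-C, TAP1 and PSMB9 are shown because HLA-B and PSMB9 carry the difference between the groups and HLA-C and TAP1 are their neighbours in sequence or position. Each is the 250 bases before the RefSeq transcription start (GRCh38.p14), read 5′ to 3′ on the gene's strand. Capitals mark matches, on either strand, to GAANNGAAA, the interferon response element as it is spaced in class I genes, to the interferon response element proper (GAAA, any 2 bases, GAAA), to the NF-kappaB consensus, to the NF-Y box CCAAT and to the antioxidant response core TGACNNNGC.
PSMB9 promoter, chr6:32853942-32854191, plus strand: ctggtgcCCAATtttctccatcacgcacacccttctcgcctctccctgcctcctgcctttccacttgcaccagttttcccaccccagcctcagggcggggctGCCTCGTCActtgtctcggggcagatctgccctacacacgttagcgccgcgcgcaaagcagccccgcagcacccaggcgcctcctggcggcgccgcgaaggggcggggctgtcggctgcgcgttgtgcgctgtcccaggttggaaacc
TAP1 promoter, chr6:32853705-32853954, minus strand: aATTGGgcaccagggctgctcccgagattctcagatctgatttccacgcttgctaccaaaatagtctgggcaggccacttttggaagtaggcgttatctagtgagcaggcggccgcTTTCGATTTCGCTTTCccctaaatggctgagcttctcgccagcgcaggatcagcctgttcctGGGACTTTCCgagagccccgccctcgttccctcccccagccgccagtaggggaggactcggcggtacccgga
HLA-B promoter, chr6:31357180-31357429, minus strand: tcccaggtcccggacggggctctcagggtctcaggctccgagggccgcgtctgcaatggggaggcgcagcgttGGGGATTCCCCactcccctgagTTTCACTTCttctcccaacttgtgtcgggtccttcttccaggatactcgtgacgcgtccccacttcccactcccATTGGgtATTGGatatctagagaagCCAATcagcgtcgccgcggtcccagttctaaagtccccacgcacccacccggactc
HLA-C promoter, chr6:31272093-31272342, minus strand: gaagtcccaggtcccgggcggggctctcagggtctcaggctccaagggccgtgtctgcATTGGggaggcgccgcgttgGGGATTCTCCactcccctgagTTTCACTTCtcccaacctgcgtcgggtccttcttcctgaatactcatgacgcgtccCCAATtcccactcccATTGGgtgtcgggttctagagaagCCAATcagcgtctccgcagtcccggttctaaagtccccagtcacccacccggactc

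PSMB9 and TAP1 are read away from each other from starts 488 bases apart, and the windows shown share 13 bases. The CCAAT match that lies farthest from the start in each is the same site, 1 site counted for both genes. The TAP1 promoter holds overlapping matches to the interferon response element that begin 134 and 128 bases before the start and an NF-kappaB match at 72 bases. The PSMB9 promoter has a CCAAT match at 243 bases and a TGACNNNGC match at 148 bases, and no interferon element of these letters in this window. The interferon matches given for TAP1 lie between the starts of TAP1 and PSMB9, farther from the PSMB9 start than its window reaches. HLA-B and HLA-C have nearly the same promoter, 226 identical bases with 20 mismatches and 8 gaps (89.0% identity). Both carry the NF-kappaB and interferon matches side by side, the interferon match 155 bases before the start in HLA-B and 151 bases in HLA-C. RefSeq promoters were at hand for 8 of the 9 genes, in 10 entries, with none for HLA-E. GAANNGAAA was found in HLA-B, HLA-C and TAP2 and in 6.56% of all 35116 promoters, and the interferon response element in B2M, TAP1, TAP2 and PSMB10 and in 3.02% of promoters. The NF-kappaB consensus was found in HLA-B, HLA-C, B2M and TAP1 and in 5.21% of promoters. CCAAT was found in HLA-B, HLA-C, B2M, TAP1 and PSMB9 and in 32.0% of promoters, and TGACNNNGC in PSMB9 alone among the 9 genes and in 10.9% of promoters. TTCNNNGAA, the STAT motif, was found only at second starts of TAP1 and PSMB8 and in 6.57% of promoters. These matches describe the letters and say nothing of binding in these cells.

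**Figure D1:**
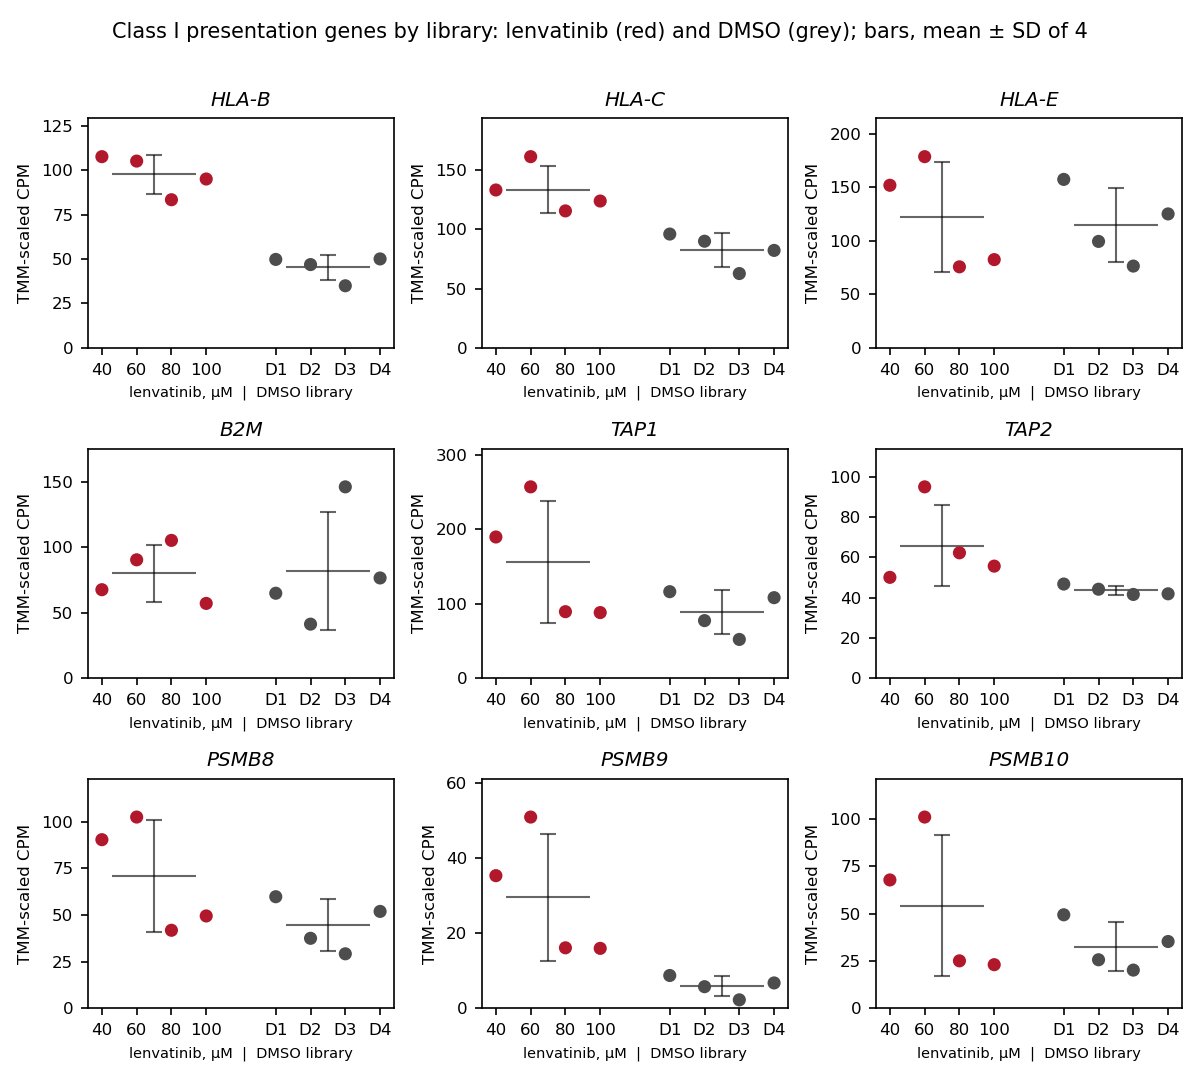
Levels of the 9 genes in each library in TMM-scaled CPM, with lenvatinib libraries by dose in µM (red) left of DMSO libraries 1 to 4 (grey), and the mean ± SD of 4 libraries as bars. HLA-B, HLA-C, TAP2 and PSMB9 were higher in every lenvatinib library than in any DMSO library, while TAP1, PSMB8 and PSMB10 were above all DMSO libraries at 40 and 60 µM and within their range at 80 and 100 µM.

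Across the 9 genes, 4 had every lenvatinib library above every DMSO library in CPM (HLA-B, HLA-C, TAP2 and PSMB9), where 3.08% of all tested genes did. None of the 9 had every lenvatinib library below, where 3.38% of genes did. In edgeR's quasi-likelihood fit without the GC slope, 0 of the 9 and 0 of 11827 genes (0%) had an adjusted p under 0.05. At an unadjusted p under 0.05, 3 of the 9 were higher (HLA-B, HLA-C and PSMB9), against 3.13% of all genes higher and 4.42% in either direction. The log2 fold change was above 0 for 8 of the 9, with a median of 0.69, while the median over all genes was -0.11. Taking the GC slope as a covariate, edgeR called HLA-B and PSMB9 higher, 2 of 9 where 1.48% of all genes were called higher, and none of the 9 lower, where 1.78% were (3.26% in both directions). At an unadjusted p under 0.05 in this fit, 4 of the 9 were higher (HLA-B, HLA-C, TAP2 and PSMB9), where 8.39% of genes were, and 1 was lower (HLA-E), with 20.3% of genes in either direction. The median log2 fold change in that fit was 0.26 for the 9 genes and -0.06 for all genes. DESeq2 without the GC slope also called HLA-B and PSMB9, among 94 of the 11760 genes to which it gave an adjusted p (0.799%, and 0.502% higher). With the slope DESeq2 called 5 of the 9, where it called 17.2% of genes: HLA-B, HLA-C, TAP1 and PSMB9 higher (6.75% of genes) and HLA-E lower (10.5%). In limma-voom with the slope, HLA-B, HLA-C and PSMB9 were called higher, where 3.04% of genes were higher and 3.96% lower (6.99% in all).

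**Figure D2:**
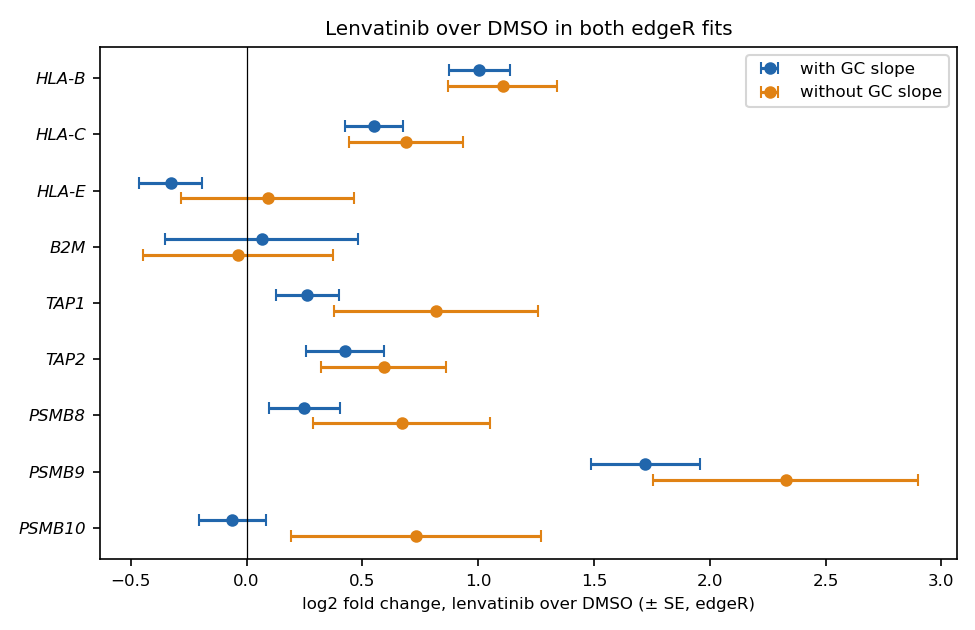
Log2 fold changes of lenvatinib over DMSO with their SE for each gene, from edgeR with the GC slope (blue) and without it (orange). PSMB9 and HLA-B lie farthest from 0 in both fits, at 1.72 and 1.00 with the GC slope, and PSMB10 moves most between fits, -0.06 with the slope and 0.73 without it.

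The classical heavy chains were higher after lenvatinib. HLA-B, which presents peptides to T cells and engages some NK cell receptors, stood at 108, 105, 83.4 and 95.03 CPM at 40, 60, 80 and 100 µM, against 49.8, 46.9, 34.97 and 50.1 CPM in DMSO libraries 1 to 4. Every lenvatinib library was above every DMSO library, with the 40 µM library highest and the 80 µM library lowest of the 4. HLA-B rose with the GC slope in the fit, by 1.00 on the log2 scale (SE 0.13, edgeR adjusted p = 0.0115), and its log2 fold change without the slope was 1.11 (SE 0.24, unadjusted p = 0.0012, edgeR adjusted p = 0.874). The call was lost without the 80 µM library (edgeR adjusted p = 0.0931), the 100 µM library (0.112), DMSO library 1 (0.065) or DMSO library 4 (0.063), while the log2 fold change stayed between 0.93 and 1.12 in every alternative of that fit. Without these libraries in turn, 0%, 0.0764%, 0.219% and 0.152% of all genes were called, against 3.26% with all 8 libraries.

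HLA-C, a classical heavy chain and a main ligand of inhibitory NK cell receptors, stood at 133, 161, 115 and 124 CPM at 40, 60, 80 and 100 µM, against 95.9, 89.9, 62.7 and 82.2 CPM in DMSO libraries 1 to 4. The groups did not overlap, and the 60 µM library was the highest. It averaged 133 ± 19.9 CPM in lenvatinib libraries and 82.7 ± 14.5 CPM in DMSO libraries (SD, n = 4 each). The log2 fold change was 0.55 with the GC slope (SE 0.12, edgeR adjusted p = 0.0532) and 0.69 without it (SE 0.25, edgeR adjusted p = 0.874), so HLA-C missed the threshold in both. It passed with the GC slope in 8 of 16 alternatives, among them leaving out the 40 µM library (edgeR adjusted p = 0.0403) or the 60 µM library (0.00623). The adjusted p ranged from 3.95e-04 to 0.289 over these alternatives.

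The non-classical chain and the light chain showed no such separation. HLA-E, which binds leader peptides of other class I chains and is read by the NK cell receptor NKG2A, stood at 152, 179, 75.8 and 82.5 CPM at 40, 60, 80 and 100 µM, against 157, 99.5, 76.5 and 125 CPM in DMSO libraries 1 to 4. The groups overlapped, and in each group the libraries with the highest GC slopes had the most HLA-E. Its log2 fold change was -0.33 with the GC slope (SE 0.14, edgeR adjusted p = 0.218) and 0.09 without it (SE 0.37, edgeR adjusted p = 0.928), and without the 60 µM library the first passed as lower (-0.27, edgeR adjusted p = 0.0222). B2M, the light chain that all class I molecules need to reach the cell surface, stood at 67.6, 90.5, 105 and 57.1 CPM at 40, 60, 80 and 100 µM, against 64.9, 41.3, 146 and 76.6 CPM in DMSO libraries 1 to 4. Both the highest and the lowest B2M values were DMSO libraries. Its log2 fold change was 0.07 with the GC slope (SE 0.42, edgeR adjusted p = 0.953) and -0.04 without it (SE 0.41, edgeR adjusted p = 0.972), and its SE with the GC slope was the largest of the 9.

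The transporter subunits differed from each other. TAP2 stood at 50.04, 94.97, 62.2 and 55.6 CPM at 40, 60, 80 and 100 µM, against 46.7, 44.1, 41.6 and 41.9 CPM in DMSO libraries 1 to 4. All lenvatinib libraries were above the DMSO libraries, narrowly at 40 µM, and the DMSO values lay close together at 43.6 ± 2.39 CPM (SD, n = 4). TAP1, whose protein pairs with that of TAP2 to form the channel, stood at 190, 257, 89.4 and 88.2 CPM at 40, 60, 80 and 100 µM, against 116, 77.4, 52.1 and 108 CPM in DMSO libraries 1 to 4. The 40 and 60 µM libraries were above all DMSO libraries, and the 80 and 100 µM libraries lay within their range. The log2 fold change of TAP2 was 0.42 with the GC slope (SE 0.17, edgeR adjusted p = 0.204) and 0.59 without it (SE 0.27, edgeR adjusted p = 0.874). That of TAP1 was 0.26 with the GC slope (SE 0.14, edgeR adjusted p = 0.326) and 0.82 without it (SE 0.44, edgeR adjusted p = 0.874). Without the 60 µM library both passed with the GC slope, at edgeR adjusted p = 0.024 for each, and TAP2 also passed without the 40 µM library (0.0352).

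Among the immunoproteasome subunits PSMB9, the caspase-like site's replacement subunit LMP2, differed most. PSMB9 stood at 35.3, 50.9, 16.1 and 15.9 CPM at 40, 60, 80 and 100 µM, against 8.73, 5.76, 2.26 and 6.75 CPM in DMSO libraries 1 to 4, which rest on 825, 316, 770 and 704 reads in lenvatinib libraries and 241, 205, 94 and 227 reads in DMSO libraries. The groups did not overlap, and the 40 and 60 µM libraries were the highest. PSMB9 rose by 1.72 on the log2 scale with the GC slope in the fit (SE 0.24, edgeR adjusted p = 0.0142), and its log2 fold change without the slope was 2.33 (SE 0.57, unadjusted p = 0.00313, edgeR adjusted p = 0.874). This call, too, was lost without the 80 µM library (edgeR adjusted p = 0.106), the 100 µM library (0.111), DMSO library 1 (0.0667) or DMSO library 4 (0.0743), with log2 fold changes of 1.59 to 1.995 over all alternatives of that fit. Without these libraries in turn, 0% to 0.219% of all genes were called. Without the slope the log2 fold change of PSMB9 ran from 1.48, with only the 80 and 100 µM libraries set against DMSO, to 3.35, with offsets by GC content and length.

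PSMB8, which encodes LMP7 and takes the place of the chymotrypsin-like subunit, stood at 90.4, 103, 41.8 and 49.5 CPM at 40, 60, 80 and 100 µM, against 59.8, 37.5, 29.2 and 52.0 CPM in DMSO libraries 1 to 4. PSMB10, which encodes MECL-1 and takes the place of the trypsin-like subunit, stood at 67.7, 100.9, 25.1 and 23.0 CPM at 40, 60, 80 and 100 µM, against 49.4, 25.6, 20.2 and 35.3 CPM in DMSO libraries 1 to 4. For both genes the 40 and 60 µM libraries were above all DMSO libraries and the 80 and 100 µM libraries were within their range. The log2 fold change of PSMB8 was 0.25 with the GC slope (SE 0.15, edgeR adjusted p = 0.407) and 0.67 without it (SE 0.38, edgeR adjusted p = 0.874), and the first passed without the 60 µM library (0.31, edgeR adjusted p = 0.0372). That of PSMB10 was -0.06 with the GC slope (SE 0.14, edgeR adjusted p = 0.862) and 0.73 without it (SE 0.54, edgeR adjusted p = 0.874), and it was negative without the slope when only the 80 and 100 µM libraries were set against DMSO (-0.41).

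**Figure D3:**
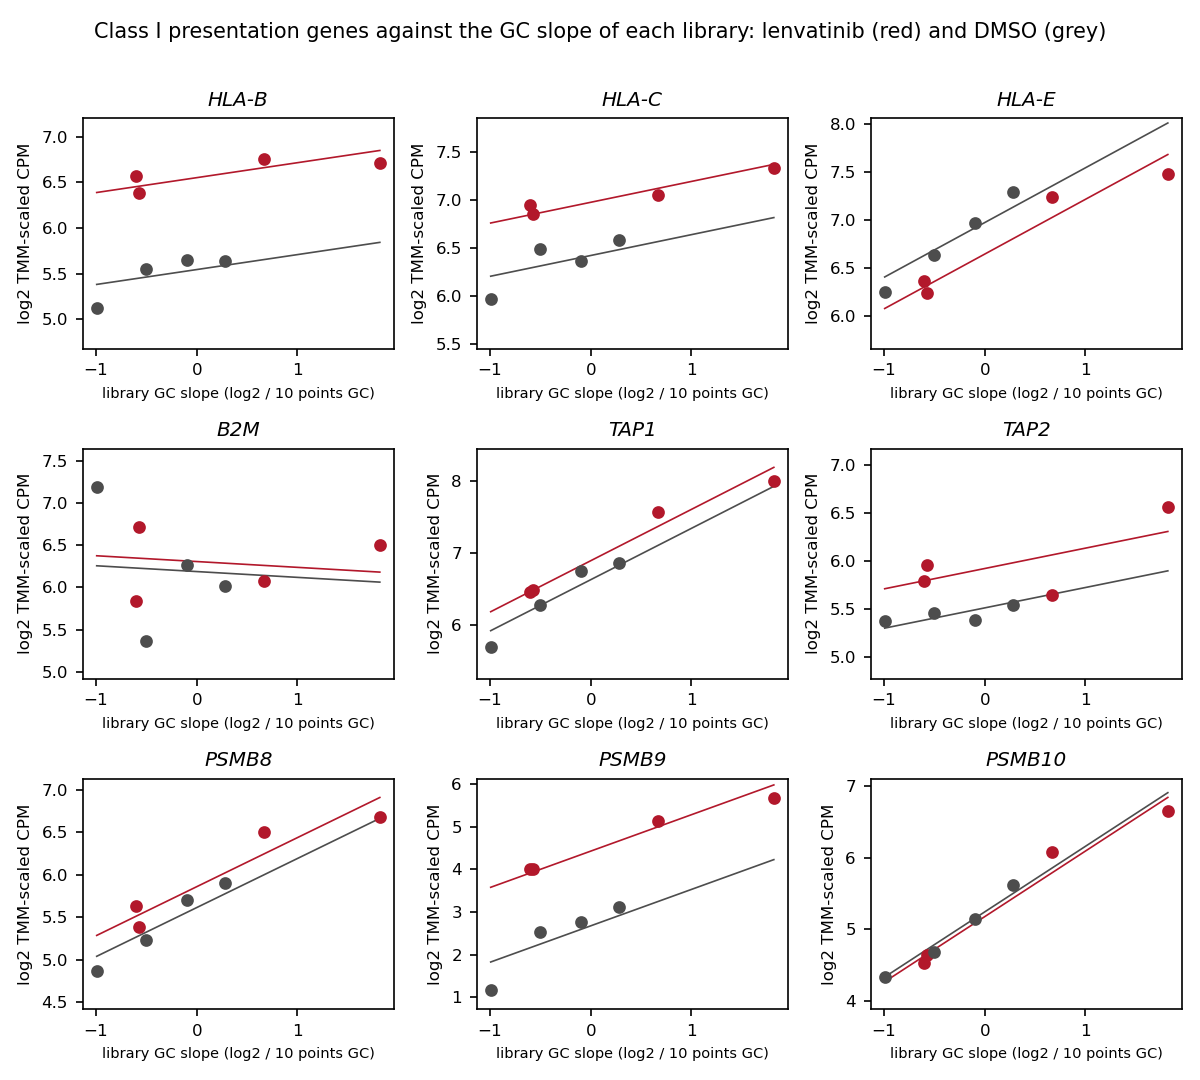
Log2 TMM-scaled CPM of each gene against the GC slope of the library (log2 per 10 percentage points of GC content), with lenvatinib libraries in red, DMSO libraries in grey, and parallel least-squares lines for the groups. The red points of HLA-B, HLA-C, TAP1, PSMB8 and PSMB9 lie above the grey line along the whole slope. Only for HLA-B, HLA-C and PSMB9 do they stay clear of the scatter of the grey points about that line. The red points of PSMB10 lie on both sides of it.

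The 9 genes followed the GC slope of the libraries to different degrees, in another order than that of their own GC content. The fitted log2 change per unit of GC slope was 0.92 for PSMB10, 0.85 for PSMB9, 0.71 for TAP1, 0.58 for PSMB8 and 0.57 for HLA-E. It was smaller for HLA-C (0.22), TAP2 (0.21), HLA-B (0.16) and B2M (-0.07). The GC content of the longest transcript was 60.1% for PSMB10 and 46.9% for PSMB9, genes with nearly the same dependence, and 59.0% for HLA-B and 62.7% for HLA-C, which had little. At a slope of 0 on these lines, PSMB9 came to 17.4 to 23.8 CPM in lenvatinib libraries against 4.06 to 7.74 CPM in DMSO libraries. Adjusted in the same way, HLA-B came to 85.5 to 102 CPM in lenvatinib libraries against 39.1 to 50.6 CPM in DMSO libraries, and HLA-C to 120 to 135 CPM in lenvatinib libraries against 72.8 to 96.9 CPM in DMSO libraries. These were the 3 genes whose groups did not overlap after adjustment. The share of all tested genes whose groups lay apart after such adjustment was not computed. What the GC slope stands for in these libraries was not tested.

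The immunoproteasome subunits can also be read against the constitutive subunits they replace, as a ratio of deposited TPM (a scale per transcript length) within each library. Such a ratio is free of library scaling but not of a trend with GC content. PSMB9 amounted to 11.8%, 12.9%, 13.6% and 13.2% of PSMB6 at 40, 60, 80 and 100 µM, against 2.63%, 3.27%, 1.93% and 2.87% in DMSO libraries 1 to 4. The lenvatinib values lay close together and all above DMSO, and the mean was 12.9 ± 0.798% in lenvatinib libraries and 2.67 ± 0.565% in DMSO libraries (SD, n = 4 each). The difference was 2.29 on the log2 scale, higher in 4 of 4 lenvatinib libraries (exact two-sided permutation test, p = 0.0286, the smallest that 4 against 4 allows, 0.0429 after Benjamini-Hochberg adjustment over 3 ratios).

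PSMB10 amounted to 9.42%, 15.7%, 7.53% and 6.504% of PSMB7 at 40, 60, 80 and 100 µM, against 6.09%, 4.85%, 5.15% and 5.28% in DMSO libraries 1 to 4. All lenvatinib values were above DMSO, with the 60 µM library far ahead and the 100 µM library close to DMSO library 1 (log2 difference 0.79, exact permutation p = 0.0286, adjusted 0.0429). In each group this ratio was highest in the library with the highest GC slope, 60 µM (1.82) and DMSO library 1 (0.28). The GC content was 60.1% for PSMB10 and 49.9% for PSMB7, and the part of the GC slope in this ratio was not tested. PSMB8 amounted to 23.2%, 21.2%, 37.4% and 30.6% of PSMB5 at 40, 60, 80 and 100 µM, against 15.6%, 20.7%, 21.4% and 19.6% in DMSO libraries 1 to 4. The 60 µM value lay just under that of DMSO library 3 (log2 difference 0.51, exact permutation p = 0.0571, adjusted 0.0571). With any library left out, the smallest p that 3 against 4 allows is 0.0571, so no ratio could then pass. 

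Among the constitutive subunits, PSMB7 stood at 729, 507, 641 and 655 TPM at 40, 60, 80 and 100 µM, against 915, 889, 825 and 906 TPM in DMSO libraries 1 to 4, so every lenvatinib library was lower, while the TPM of PSMB10 overlapped between groups. On the log2 TPM scale the lenvatinib mean less the DMSO mean was -0.49 for PSMB7 and 0.30 for PSMB10, so more of that ratio's difference came from PSMB7. For PSMB6 it was -0.22, with overlapping groups, against 2.08 for PSMB9, and for PSMB5 -0.09 against 0.42 for PSMB8. PSMB6 and PSMB7 had log2 fold changes of -0.53 and -0.57 with the GC slope in edgeR (adjusted p = 0.117 and 0.138), and 0.12 and -0.23 without it. With the slope, DESeq2 called both lower (adjusted p = 8.89e-05 and 5.07e-04), where it called 10.5% of genes lower. It did not call PSMB5 (log2 fold change -0.40, DESeq2 adjusted p = 0.158). In the edgeR fit by dose with the slope, log2 fold changes at 40, 60, 80 and 100 µM were -0.56, -1.50, -0.49 and -0.42 for PSMB6. They were -0.51, -1.62, -0.58 and -0.48 for PSMB7, and -0.27, -1.48, -0.72 and -0.14 for PSMB5. The median over all genes at 60 µM was -0.71 in that fit.

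**Figure D4:**
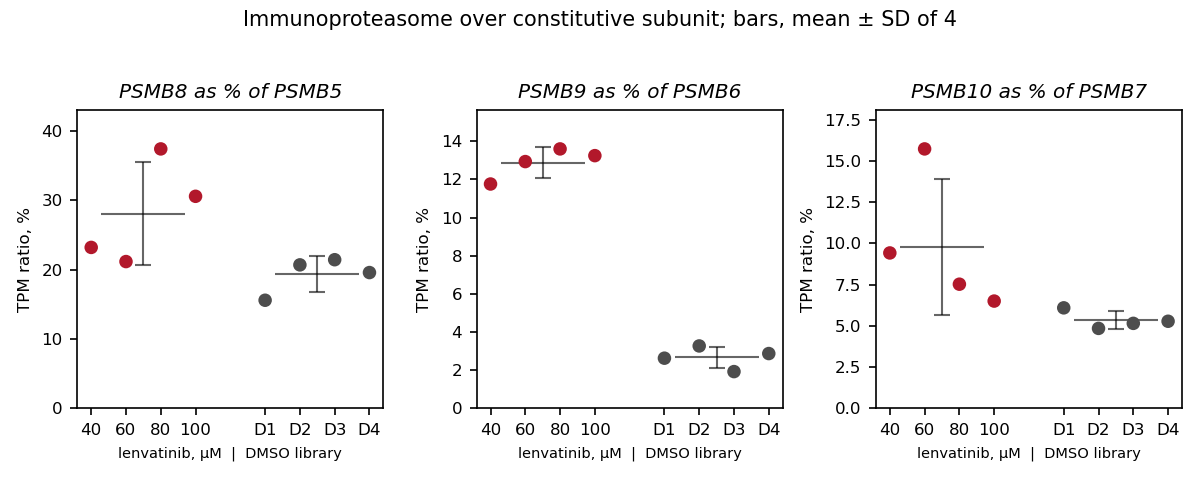
Deposited TPM of each immunoproteasome subunit as a percentage of the constitutive subunit it replaces, with lenvatinib libraries by dose in µM (red) left of DMSO libraries (grey) and the mean ± SD of 4 libraries as bars. PSMB9 was 11.8 to 13.6% of PSMB6 in lenvatinib libraries and 1.93 to 3.27% in DMSO libraries.

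No dose response passed a test. Within the lenvatinib arm, the edgeR slope over dose was called for 0 of the 9 genes and 0 of 11827 genes (0%), with 875 genes at an unadjusted p under 0.05 (7.4%). PSMB10 had the steepest slope of the 9, -0.71 in log2 per 20 µM (SE 0.30, unadjusted p = 0.0442, edgeR adjusted p = 0.295). TAP1 (-0.50), PSMB9 (-0.53), HLA-E (-0.39) and PSMB8 (-0.39) also had negative slopes, and HLA-B, HLA-C, TAP2 and B2M lay between -0.09 and -0.04. The GC slope of the libraries moves with dose here, being positive at 40 and 60 µM and negative at 80 and 100 µM, and its part in these slopes was tested only as a covariate. With it as a covariate the dose slopes of the 9 genes lay between -0.20 and 0.19, that of PSMB9 at 0.01, and 0 genes were called.

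Each dose was also set against the DMSO libraries, which all doses share. PSMB9 had log2 fold changes of 2.59, 3.11, 1.45 and 1.44 at 40, 60, 80 and 100 µM, and HLA-B of 1.24, 1.21, 0.88 and 1.06. TAP1, at 1.10, 1.54, 0.01 and -0.0049, and PSMB10, at 1.06, 1.63, -0.38 and -0.50, were near or under DMSO at the higher doses. Without the GC slope, edgeR called 5 of the 9 higher at 60 µM (HLA-B, TAP1, TAP2, PSMB9 and PSMB10), where 37.2% of all genes were called and 11.9% as higher. At the other doses it called 0 of the 9 (0% of all genes), and an unadjusted p under 0.05 was found for 8.62% of genes at 40 µM, 2.84% at 80 µM and 2.21% at 100 µM. Without DMSO library 2 or DMSO library 4 the 60 µM calls came to 0.

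With the GC slope in the fit by dose, the calls moved to the higher doses. At 80 µM, HLA-B (log2 fold change 0.99), HLA-C (0.60), TAP2 (0.54) and PSMB9 (1.94) were called higher, 4 of 9 where 4.22% of all genes were. At 100 µM, HLA-B (1.19), HLA-C (0.71) and PSMB9 (1.97) were called higher, 3 of 9 where 2.09% were. At 40 µM none of the 9 was called, where 1.78% of genes were (0.364% higher and 1.42% lower), although PSMB9 stood at 1.30 (log2 fold change, edgeR adjusted p = 0.11) and HLA-B at 0.86 (edgeR adjusted p = 0.068). At 60 µM, where 34.7% of genes were called (5.87% higher and 28.8% lower), TAP2 was higher (0.91, edgeR adjusted p = 0.0358) and HLA-E lower (-1.06, edgeR adjusted p = 0.0081). The GC slopes of the 40 and 60 µM libraries lie above those of all DMSO libraries, so the adjusted values at these doses rest on extending the line.

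Set beside each other per transcript length, the 9 genes had a different order in the 2 groups. In lenvatinib libraries the mean TPM was 146 for HLA-C, 110 for HLA-B, 105 for B2M, 87.8 for PSMB8, 74.9 for TAP1, 69.1 for HLA-E, 59.8 for PSMB10 and 53.0 for PSMB9, with each neighbour's range overlapping the next. TAP2 came last at 19.8 TPM, below the range of PSMB9. In DMSO libraries the order was B2M at 125 TPM, HLA-C at 100.6, HLA-E at 78.9, PSMB8 at 65.4, HLA-B at 60.3, TAP1 at 53.2, PSMB10 at 47.3, TAP2 at 17.7 and PSMB9 at 13.0. In DMSO the ranges did not overlap at the steps from HLA-C to HLA-E, from HLA-E to PSMB8, from PSMB10 to TAP2 and from TAP2 to PSMB9. PSMB9 was thus the lowest of the 9 in DMSO libraries and above TAP2 in lenvatinib libraries.

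The deposited TPM separated other genes than the CPM did. HLA-B, TAP1, PSMB8 and PSMB9 were higher in every lenvatinib library than in any DMSO library in TPM, 4 of 9 where 4.84% of tested genes were. HLA-E was lower in every lenvatinib library, 1 of 9 where 4% were. TAP1 stood at 79.0, 83.5, 70.05 and 66.9 TPM at 40, 60, 80 and 100 µM, against 53.9, 53.4, 44.98 and 60.3 TPM in DMSO libraries 1 to 4. PSMB8 stood at 93.2, 83.4, 81.6 and 93.2 TPM at those doses, against 67.2, 63.2, 61.0 and 70.3 TPM in DMSO libraries 1 to 4. HLA-E stood at 71.9, 65.9, 67.5 and 71.2 TPM at those doses, against 83.0, 78.0, 75.1 and 79.3 TPM in DMSO libraries 1 to 4. These 3 genes varied less between libraries in TPM than in CPM, and only HLA-B and PSMB9 had groups apart on both scales. The share of all tested genes with groups apart on both scales was not computed.

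Other genes of the route were counted in 4 lists, and edgeR called none of them in either fit, nor did DESeq2 without the GC slope. Of 11 peptide-loading and class I genes, 7 were tested, with a median log2 fold change of -0.10 with the GC slope and -0.25 without it. TAPBP, which encodes tapasin and bridges TAP to the class I molecule, averaged 171 ± 46.0 CPM in lenvatinib libraries and 100.1 ± 14.1 CPM in DMSO libraries, with all lenvatinib libraries above (log2 fold change 0.59 with the GC slope, edgeR adjusted p = 0.0636). CALR, the chaperone calreticulin, averaged 614 ± 268 CPM in lenvatinib libraries and 1252 ± 190 CPM in DMSO libraries, with all lenvatinib libraries below (-0.91 with the GC slope, edgeR adjusted p = 0.186). At an unadjusted p under 0.05, 1 of the 7 was higher and 1 lower in that fit, where 8.39% of all genes were higher and 20.3% in either direction. HLA-F, HLA-G, TAPBPL and ERAP2 had 38, 8, 46 and 112 reads over all libraries and were not tested.

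Of 9 proteasome partners, 8 were tested, with a median log2 fold change of -0.44 with the GC slope and 0.09 without it. POMP, the assembly chaperone of the proteasome, stood at -0.45 with the GC slope (log2 fold change, edgeR adjusted p = 0.165). PSME1, an activator cap subunit named after its values were seen, averaged 112 ± 24.9 CPM in lenvatinib libraries and 67.3 ± 20.4 CPM in DMSO libraries, the one gene of this list whose groups did not overlap (0.55 with the GC slope, edgeR adjusted p = 0.171). At an unadjusted p under 0.05 with the GC slope, 1 of the 8 was higher (PSME1) and 3 were lower (PSMB6, PSMB7 and POMP), where 8.39% of all genes were higher and 20.3% in either direction. UBE2L6 had 0 reads.

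All 25 regulators were tested, with a median log2 fold change of 0.00 with the GC slope and -0.04 without it. IRF1, a transcription factor that drives class I and immunoproteasome genes, averaged 27.9 ± 11.2 CPM in lenvatinib libraries and 14.8 ± 2.80 CPM in DMSO libraries (0.54 with the GC slope, edgeR adjusted p = 0.0717). IRF2, its close relative, had 0.87 (edgeR adjusted p = 0.0987) and STAT2, an interferon signal carrier, 0.46 (edgeR adjusted p = 0.137) in the same fit. NLRC5, the class I transactivator and outside the naming rule, averaged 68.5 ± 39.3 CPM in lenvatinib libraries and 40.7 ± 7.28 CPM in DMSO libraries, with 0.20 with the GC slope (edgeR adjusted p = 0.362). At an unadjusted p under 0.05 with the GC slope, 3 of the 25 were higher (IRF1, IRF2 and STAT2) and 1 was lower, where 8.39% of all genes were higher and 20.3% in either direction. The lower one, outside the naming rule, was IRF9, a transcription factor of interferon signalling, at 2.74 ± 1.58 CPM in lenvatinib libraries and 6.13 ± 4.21 CPM in DMSO libraries, with -1.77 (SE 0.60, edgeR adjusted p = 0.15), farthest from 0 in the list.

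MHC class II genes were almost silent. Only HLA-DMA, a peptide-exchange chain, reached the test among 12 genes, at 6.13 CPM in lenvatinib libraries and 3.47 CPM in DMSO libraries on average. HLA-DRA, HLA-DRB1, HLA-DPA1, HLA-DPB1, HLA-DQA1, HLA-DQB1 and HLA-DOA had 0 reads in all libraries, CD74 had 2 and CIITA, the class II transactivator, 146.

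**Figure D5:**
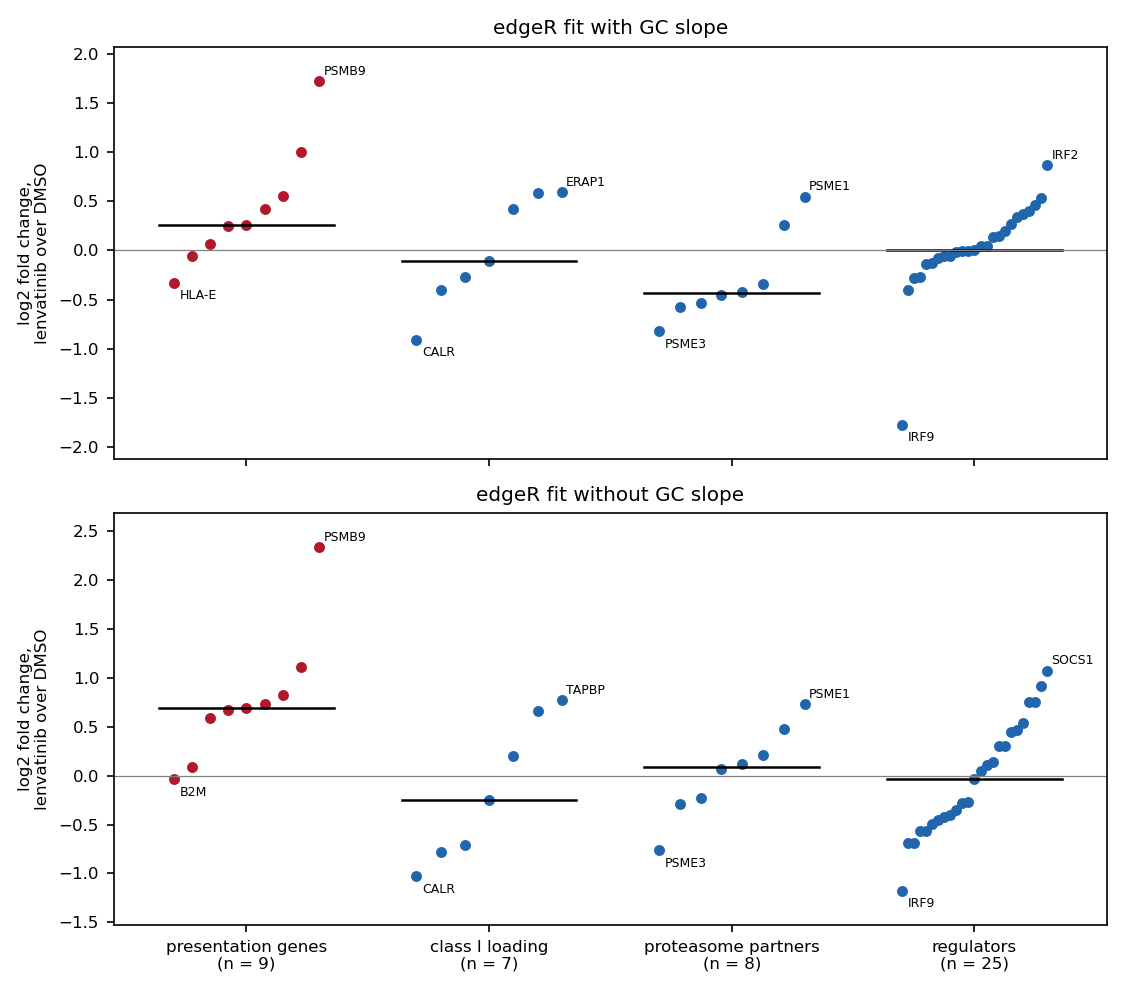
Log2 fold changes of lenvatinib over DMSO for the 9 presentation genes (red) and 3 lists of related genes (blue), ordered within each list, from edgeR with the GC slope (upper panel) and without it (lower panel). Black bars are medians, 0.26 for the presentation genes and 0.00 for the regulators with the GC slope, and the labelled points are the ends of each list.

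The rest of the MHC was examined for the same shift. From the start of HLA-F to the end of TAPBP (chr6:29722775-33314387, GENCODE v29) lie 141 further genes of the table, of which 91 were tested. Without the GC slope 68 of the 91 had log2 fold changes above 0, with a median of 0.29 and 0 calls. Over all genes 43.8% were above 0. With it 30 were above 0, where 42.8% of all genes were, with a median of -0.15, and TCF19 was called higher (0.52, edgeR adjusted p = 0.0486) while TNXB (-1.62, 0.00509), IER3 (-0.94, 0.0397) and DDAH2 (-0.53, 0.0457) were called lower, 1 and 3 of 91 where 1.48% and 1.78% of all genes were. The groups did not overlap for 4 of the 91: TCF19, TAPBP and ATF6B were above in every lenvatinib library and COL11A2 below, where 3.08% and 3.38% of all genes were. ATF6B and COL11A2 are named after their values were seen.

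Among the genes whose pattern over the 8 libraries was most like the mean of TAP1, TAP2, PSMB8, PSMB9 and PSMB10 were LOXL1 (Pearson r = 0.999), GALT (0.997), TBX1 (0.997) and PTPN18 (0.997), out of 9435 genes compared. With the GC slope regressed out, MSLN (0.998), LOXL1 (0.996), PDE7A (0.991), ASS1 (0.991) and ANKRD10 (0.99) came first. For the mean of HLA-B, HLA-C, HLA-E and B2M, M1AP (0.99), TMEM8B (0.987), FAM219A (0.986), PRR15 (0.985) and SKI (0.984) came first. With the GC slope regressed out of that pattern, FAM219A (0.983), CHST15 (0.98), M1AP (0.977), WWC3 (0.976) and SDR39U1 (0.972) did. These correlations describe 8 libraries that share their treatment and their GC slopes, and they are the highest values picked from all genes compared.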

How the data were processed

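Per the file headers, the table deposited by the authors holds read counts, TPM and FPKM for each gene and library. FastQC, HISAT2, StringTie, bedtools and the GRCh38 build are named in the submitters' processing notes, while versions, library kit and strandedness were not given in the sources used here. For all fits the deposited counts were used, the deposited TPM served for subunit ratios and levels between genes, and the deposited FPKM were not used. A total of 3 counts, the limit that a count of 0 allows, is 0.0802 to 0.295 CPM, which covers counting error only.

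Testing took genes that averaged 1 CPM or more and was done with edgeR 4.0.16 (R 4.3.3, TMM, robust quasi-likelihood) over the 8 libraries, with Benjamini-Hochberg adjustment over all of them and a threshold of 0.05. Differences between doses count as spread in the comparison of groups. Dose was centred at 70 µM and scaled per 20 µM, and each dose was set against DMSO in a fit of 5 groups that assumes a lone library varies as DMSO libraries do. GC content is that of the longest GENCODE v29 transcript, and the libraries' GC slopes entered as a covariate (5 residual degrees of freedom, against 6 without it). Subunit ratios were tested by exact permutation over libraries. Fits were tested on simulated data.

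The 9 genes, the lists, the GC covariate and the tests were chosen with earlier results of these data known. Named were the 9 genes; of each list, called genes and the 3 with the smallest p with the GC slope; the 5 most alike by Pearson r at 5 CPM or more; and up to 5 MHC neighbours. Some genes that this rule names are not reported here. Alternatives were DESeq2 1.42.0, limma-voom 3.58.1, other scalings and filters, offsets by GC content and length, a block on library numbers, only 80 and 100 µM, and leaving out each library.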

Additional observations from a re-analysis of the deposited data

How the results depend on the processing

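Without the GC slope, 0 of the 9 genes passed in every edgeR and limma-voom alternative, and DESeq2 called 2 (HLA-B and PSMB9). With the GC slope, where 2 passed, DESeq2 called 5 (17.2% of all genes) and the comparison of only the 80 and 100 µM libraries called 5 (20.7%). Leaving out 1 library gave 0 to 7 calls, beside which the share of all genes called also moved. There were 0 calls without the 80 µM (0% of all genes), 100 µM (0.0764%), DMSO 1 (0.219%) or DMSO 4 (0.152%) library. There were 2 without DMSO 2 (0.559%) or DMSO 3 (1.84%), 4 without 40 µM (8.48%) and 7 without 60 µM (23.3%). With the GC slope, related genes passed in 4 cases with DESeq2 size factors (8.43% of all genes) and 2 with library totals (5.35%), against 0. With 1 library left out 0 to 13 passed, the 13 without 60 µM (23.3% of all genes). Each dose rests on 1 library. Which of the 9 passed at 60, 80 and 100 µM changed with the GC covariate, and at 60 µM also with the DMSO library left out. At 60 µM the log2 fold change of PSMB9 was 3.11 without the covariate and 0.19 with it. That of HLA-B was 1.21 without it and 0.37 with it. Log2 subunit ratios ranged over 2.14 to 2.40 (PSMB9), 0.54 to 0.96 (PSMB10) and 0.36 to 0.64 (PSMB8) with 1 library left out, when none can pass, and PSMB8 to PSMB5 passed when computed from counts per length (0.54, exact permutation test, adjusted p = 0.0286).

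Directions changed for HLA-E, B2M and PSMB10 alone among the 9. Without the GC slope HLA-E was -0.14 with library totals and -0.51 at only 80 and 100 µM, and -0.14 to 0.28 with 1 library left out. B2M was 0.053 with limma-voom, 0.064 with the replicate block, 0.013 at only 80 and 100 µM, 1.88 with offsets and -0.26 to 0.40 with 1 library left out, and PSMB10 was -0.41 at only 80 and 100 µM. Without the slope, offsets gave 3.35 for PSMB9, 1.21 for TAP2, 0.35 for HLA-C, 0.55 for TAP1 and 0.12 for PSMB10, and only 80 and 100 µM gave 1.48 for PSMB9, 0.034 for TAP1 and 0.063 for PSMB8. With the GC slope PSMB10 was 0.056 with library totals and -0.15 to 0.0045 with 1 library left out, and B2M was -0.31 with the replicate block, -0.13 at only 80 and 100 µM and -0.19 to 0.39 with 1 library left out. The cause was not tested. Library totals moved the median of all genes to 0.05, against -0.06, with the GC slope. The library numbers do not pair the groups, since lenvatinib numbers are doses: same-number deviations correlated at 0.744, -0.495, 0.861 and -0.651. The replicate block kept 2 calls with the GC slope and 0 without it, with 232 genes called in all.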
